A study of Homo sapiens with 12 samples.

Results

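The expression of 10 genes known as regulators or surface marks of hematopoietic stem cells (HSCs), MECOM, ERG, MEIS1, GFI1, HLF, MLLT3, CD34, PROCR, EMCN and FGD5, was examined in RNA sequencing of a human acute myeloid leukemia (AML) cell line. The genes were found by exact gene name, and all 10 were present among the 26481 genes with a count in every sample. The study asked how the addition of the hypomethylating drug decitabine to chemotherapy shapes the leukemia cells that grow back. HEL is an established human erythroleukemia line, here a culture carrying lentiviral DNA barcodes, and 12 libraries in 4 groups were counted per gene. Untreated cells (NT, n = 2) were grown with 0.1 µM DMSO. The Doxo group (n = 3) received 1.8 µM doxorubicin, an anthracycline that damages DNA. The Doxo+Cyta group (n = 3) received 1.8 µM doxorubicin with 6 µM cytarabine, a nucleoside analog that blocks DNA synthesis. The Doxo+Cyta+DAC group (n = 4) received the same 2 drugs at the same doses with 0.1 µM decitabine, an inhibitor of DNA methyltransferases. Drugs were present for at least 72 h, and the survivors regrew for about 30 days before RNA was taken, so every treated library is a relapse and not an acute response. There is no group with decitabine alone, all groups are 1 cell line, and each library is a bulk culture, in which a change in the number of expressing cells cannot be told apart from a change in RNA per cell.

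HSCs renew themselves for life while feeding every blood lineage, and a small network of transcription factors, chromatin readers and surface receptors marks and maintains that state. Several of these genes are reused by AML cells, in which high MECOM, MEIS1 or ERG is known from poor-risk or stem-like disease. Others, such as EMCN, PROCR and FGD5, are shared between HSCs and endothelium and have also been used as marks of primitive blood cells.

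Total counts ran from 12763582 to 19106235 per library, and gene levels are given as CPM, the counts scaled to a common library size, on library sizes scaled by the trimmed mean of M values. Within groups, Doxo 4 lay 0.525 and 0.515 from Doxo 5 and Doxo 6 (root-mean-square difference of log2 CPM over all tested genes), which lay 0.298 apart. Doxo+Cyta 20 lay 0.575 and 0.57 from Doxo+Cyta 19 and Doxo+Cyta 22, which lay 0.356 apart. Results that rest on Doxo 4 or Doxo+Cyta 20 are therefore also given without them. The markers were those of an erythroid and megakaryocytic line: 9 erythroid markers summed to between 5259 and 9631 CPM, whereas the granulocyte genes MPO, ELANE and PRTN3 and the lymphoid genes CD3E and MS4A1 had at most 3 counts in every library. The label stem cell applies to what the 10 genes are known for and not to these cells, because the stem-cell genes AVP and SPINK2 and the stem-cell surface marker PROM1 also had at most 3 counts in every library.

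Scaled by gene length (RPKM, the CPM divided by the gene's length in kilobases), the 10 genes covered a wide range of levels. MLLT3 was the highest, with a mean of 50.5 RPKM over the 12 libraries, followed by PROCR with 18.9, GFI1 with 7.17, MEIS1 with 5.17, MECOM with 4.09 and ERG with 1.87. CD34 averaged 0.989 RPKM, FGD5 0.705, EMCN 0.244 and HLF 0.00937. In NT the order was MLLT3, PROCR, GFI1, MEIS1, MECOM, FGD5, ERG, CD34, EMCN and HLF, and among neighbours in it the libraries overlapped only for ERG (0.973 RPKM) and CD34 (0.963 RPKM). In Doxo+Cyta+DAC, MECOM moved ahead of GFI1 and MEIS1, with a mean of 6.45 RPKM against 5.34 and 3.35, although the libraries of MECOM and GFI1 overlapped. FGD5 moved from the sixth place in NT to the eighth in Doxo+Cyta+DAC, below CD34, at 0.184 RPKM. GFI1 and MEIS1 overlapped in Doxo and in Doxo+Cyta, as did CD34 with EMCN in Doxo, CD34 with FGD5 in Doxo+Cyta, and MEIS1 with ERG and EMCN with HLF in Doxo+Cyta+DAC.

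After filtering low counts, 14164 genes were tested with edgeR's quasi-likelihood test, and a gene was called at a Benjamini-Hochberg adjusted p under 0.05 over all of them. All members but HLF were tested. In Doxo over NT, 1 member was called higher (PROCR) and 0 lower, where 6.06% of all tested genes were called higher and 4.63% lower. In Doxo+Cyta over NT, 0 members were called, beside 0.911% of genes higher and 0.551% lower. At an unadjusted p under 0.05, 2888 of all tested genes passed in that comparison, PROCR, FGD5 and ERG among them, and DESeq2 called PROCR. In Doxo+Cyta over Doxo, 0 members were called by edgeR and 0 passed at an unadjusted p under 0.05, with 1.07% of genes higher and 2.32% lower, and DESeq2 called none of the members either. More members were called in the comparisons with Doxo+Cyta+DAC, as were more of all genes. Over NT, 2 members were called higher (MECOM, ERG) and 4 lower (MLLT3, FGD5, EMCN, MEIS1), against 24.9% and 23.7% of all genes. Over Doxo, 3 were called higher (MECOM, ERG, CD34) and 5 lower (MLLT3, FGD5, PROCR, EMCN, MEIS1), against 29.1% and 30.4%. Over Doxo+Cyta, all 9 tested members were called, 3 higher (MECOM, ERG, CD34) and 6 lower (MLLT3, FGD5, PROCR, EMCN, MEIS1, GFI1), against 29.8% and 30.5%. The median log2 fold change of the 9 tested members in that last comparison was -0.95, beside 0 over all tested genes. The comparisons with Doxo+Cyta+DAC share its 4 libraries, so they are 3 views of the same samples.

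**Figure D1:**
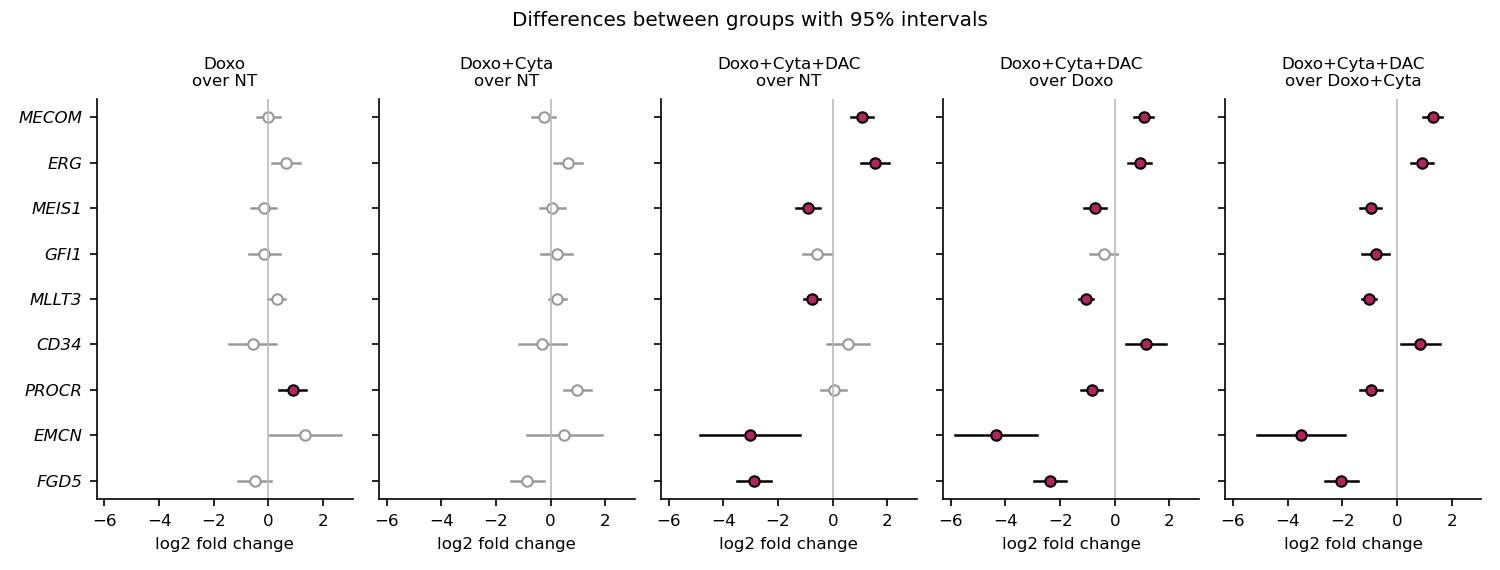
Log2 fold changes of the 9 tested genes in 5 comparisons, from edgeR's fit over all 12 libraries. Circles are estimates and lines their 95% intervals, with filled circles for adjusted p under 0.05. MECOM and ERG lie to the right of 0 in all 3 comparisons of Doxo+Cyta+DAC, and MLLT3, MEIS1, FGD5 and EMCN to the left.

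Decitabine inhibits DNA methylation, which falls on CG dinucleotides. To show how their CG content differs, the promoter windows of MECOM and ERG, called higher in all 3 comparisons with Doxo+Cyta+DAC, and of FGD5 and EMCN, the members with the largest falls, are given from RefSeq (GRCh38.p14), as 250 bases before to 50 bases after the transcription start, 5′ to 3′ on the gene's strand, with each CG in capitals. Methylation itself was not measured in these files, and the windows were chosen for the start nearest the 5′ end of the counted gene.
MECOM: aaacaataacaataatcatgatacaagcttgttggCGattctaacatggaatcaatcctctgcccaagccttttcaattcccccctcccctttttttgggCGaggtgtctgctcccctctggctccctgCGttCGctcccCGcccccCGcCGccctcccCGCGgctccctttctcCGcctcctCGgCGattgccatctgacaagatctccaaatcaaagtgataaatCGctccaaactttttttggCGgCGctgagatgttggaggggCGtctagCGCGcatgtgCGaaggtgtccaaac
ERG: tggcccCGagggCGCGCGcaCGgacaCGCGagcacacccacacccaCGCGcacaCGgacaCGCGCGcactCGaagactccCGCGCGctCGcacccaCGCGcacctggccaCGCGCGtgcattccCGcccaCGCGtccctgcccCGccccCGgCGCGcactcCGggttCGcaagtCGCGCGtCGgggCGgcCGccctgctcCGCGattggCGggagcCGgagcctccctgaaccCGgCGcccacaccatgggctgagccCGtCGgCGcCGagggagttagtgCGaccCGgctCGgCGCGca
FGD5: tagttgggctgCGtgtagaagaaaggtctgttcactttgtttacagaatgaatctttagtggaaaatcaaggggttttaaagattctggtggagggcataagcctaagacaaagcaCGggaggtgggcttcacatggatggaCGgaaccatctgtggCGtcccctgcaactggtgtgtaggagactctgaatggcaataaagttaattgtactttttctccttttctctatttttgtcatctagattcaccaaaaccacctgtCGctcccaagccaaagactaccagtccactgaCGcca
EMCN: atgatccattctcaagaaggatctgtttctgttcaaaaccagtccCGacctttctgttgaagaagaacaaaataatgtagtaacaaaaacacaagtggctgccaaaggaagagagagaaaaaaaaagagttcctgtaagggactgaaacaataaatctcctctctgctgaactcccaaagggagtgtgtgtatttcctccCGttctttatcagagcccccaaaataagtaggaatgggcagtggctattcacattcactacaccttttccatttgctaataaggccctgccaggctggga
The MECOM window (chr3:169663663-169663962, minus strand) held 19 CG dinucleotides and the ERG window (chr21:38660618-38660917, minus strand) held 53. The FGD5 window (chr3:14818712-14819011, plus strand) held 6 and the EMCN window (chr4:100517973-100518272, minus strand) held 2. The median over 35116 RefSeq windows of the same length was 14, and 0.5% of windows held more CG than that of ERG, 41.2% more than that of MECOM, 63.2% more than that of FGD5 and 81.8% more than that of EMCN. Among the other members the count did not follow the direction, since CD34, which was called higher, had 19 CG, and MLLT3, GFI1 and MEIS1, which were called lower, had 24, 27 and 18. PROCR had 9 and HLF 31. RefSeq lists 3 starts for MECOM and 4 for ERG, and counts per gene do not tell which start was in use. The windows at the other MECOM starts held 12 and 19 CG. Those at the other ERG starts held 4 each, fewer than the FGD5 window, so the high count for ERG holds only for the start shown. None of the 4 windows shown held, on either strand, any of 5 short motifs. Of all RefSeq windows, 6.4% held the GATA factor motif GATAAG, 17.2% the ETS factor motif CCGGAA, 13.1% the RUNX motif TGTGGT, 15.8% the MEIS motif TGACAG and 11.5% the TATA box TATAAA. Windows at other starts of the same genes did hold some. The MECOM window at chr3:169147422-169147721 held the RUNX and MEIS motifs, and that at chr3:169146490-169146789 the GATA motif. The overlapping ERG windows from chr21:38498428 and chr21:38498455 also held the GATA motif.

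MECOM (chr3:169083499-169663775, minus strand), the zinc-finger factor also known as EVI1 that sustains HSC self-renewal, was higher with decitabine. It stood at 18.0 and 24.3 CPM in NT, at 22.6, 20.8 and 20.1 in Doxo, at 17.3, 13.2 and 22.9 in Doxo+Cyta, and at 44.9, 44.7, 44.3 and 42.2 in Doxo+Cyta+DAC. Every Doxo+Cyta+DAC library was above every other library, and the other 3 groups overlapped. The log2 fold change was 1.06 over NT (SE 0.19, adjusted p 0.00048), 1.06 over Doxo (SE 0.16, adjusted p 9.1e-05) and 1.31 over Doxo+Cyta (SE 0.17, adjusted p 1.48e-05), all by edgeR's quasi-likelihood test. Chemotherapy without decitabine gave 0.00 for Doxo over NT, with a 95% interval of -0.41 to 0.42, and -0.25 for Doxo+Cyta over NT, with an interval of -0.66 to 0.17.

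ERG (chr21:38367261-38661780, minus strand), an ETS factor required for HSC maintenance, was also higher with decitabine. It stood at 7.87 and 7.09 CPM in NT, at 12.4, 11.8 and 10.7 in Doxo, at 11.8, 10.1 and 13.1 in Doxo+Cyta, and at 31.6, 17.5, 19.5 and 19.2 in Doxo+Cyta+DAC. The NT libraries were the lowest and the Doxo+Cyta+DAC libraries the highest, with no overlap between either and the remaining groups, and replicate 30 stood above the other Doxo+Cyta+DAC libraries. In edgeR's fit, the rise in log2 terms was 1.55 against NT (SE 0.23, adjusted p 0.000129), 0.91 against Doxo (SE 0.19, adjusted p 0.00109) and 0.92 against Doxo+Cyta (SE 0.19, adjusted p 0.00102). The values over NT without decitabine were 0.64 for Doxo (SE 0.24), with an adjusted p of 0.099, and 0.64 for Doxo+Cyta (SE 0.24), with an adjusted p of 0.162, and neither passed. Without Doxo+Cyta+DAC 30, the value over Doxo+Cyta was 0.69 (adjusted p 0.00133), and Doxo over NT, still at 0.64, passed (adjusted p 0.033).

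MEIS1 (chr2:66435400-66572759, plus strand), the TALE homeodomain partner of HOXA9, moved the other way. It stood at 21.0 and 18.8 CPM in NT, at 14.2, 20.1 and 18.3 in Doxo, at 22.6, 16.1 and 23.7 in Doxo+Cyta, and at 11.0, 12.8, 11.0 and 7.84 in Doxo+Cyta+DAC. The Doxo+Cyta+DAC libraries were below all others, while NT, Doxo and Doxo+Cyta overlapped. By edgeR, MEIS1 fell by 0.90 on the log2 scale against NT (SE 0.20, adjusted p 0.00262), by 0.72 against Doxo (SE 0.19, adjusted p 0.00438) and by 0.96 against Doxo+Cyta (SE 0.18, adjusted p 0.000473). An antisense gene within it, MEIS1-AS2, had 1 to 7 counts per library, and counting ignored strand. The partner gene HOXA9 had at most 6 counts in any library.

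GFI1 (chr1:92474761-92486876, minus strand), a zinc-finger repressor that restrains HSC proliferation, passed the test in a single comparison. It stood at 22.2 and 23.7 CPM in NT, at 14.3, 24.5 and 23.2 in Doxo, at 30.9, 19.8 and 29.5 in Doxo+Cyta, and at 21.4, 15.5, 13.5 and 11.8 in Doxo+Cyta+DAC. Doxo 4 and Doxo+Cyta 20 were each the lowest of their group, and Doxo+Cyta overlapped with Doxo+Cyta+DAC through replicates 20 and 30. The fall against Doxo+Cyta was 0.78 on the log2 scale (SE 0.22, edgeR adjusted p 0.00828), whereas -0.56 over NT (SE 0.25, adjusted p 0.0808) and -0.41 over Doxo (SE 0.23, adjusted p 0.135) missed the threshold. Without Doxo 4 and Doxo+Cyta 20 all 3 passed, at -0.58 over NT (adjusted p 0.0115), -0.61 over Doxo (adjusted p 0.00802) and -0.96 over Doxo+Cyta. Leaving out Doxo 4, Doxo+Cyta 20 or Doxo+Cyta+DAC 30 singly let the value over NT pass as well (adjusted p 0.0386, 0.0414 and 0.0223), and the value over Doxo passed without Doxo 4 (0.0278) or Doxo+Cyta+DAC 30 (0.0331). The value over NT also passed with upper-quartile scaling (-0.64, adjusted p 0.0454), without a filter on low counts (-0.60, 0.041) and with only the groups compared (-0.60, 0.0266).

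HLF (chr17:55264960-55325065, plus strand), a PAR bZIP factor of long-term HSCs, was not detectable as more than background. It had 10 counts in the 12 libraries together: 0 and 1 in NT, 1, 0 and 0 in Doxo, 2, 0 and 1 in Doxo+Cyta, and 3, 0, 1 and 1 in Doxo+Cyta+DAC. A library with 0 counts allows up to 3, which is between 0.154 and 0.237 CPM on the same scaled library sizes and covers counting error only. HLF failed the filter on low counts, and no fold change is given.

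MLLT3 (chr9:20341665-20622543, minus strand), also known as AF9, is a chromatin reader that recruits elongation factors and the methyltransferase DOT1L and maintains human HSCs in culture. It stood at 381 and 348 CPM in NT, at 361, 484 and 498 in Doxo, at 435, 420 and 447 in Doxo+Cyta, and at 218, 232, 178 and 233 in Doxo+Cyta+DAC. The Doxo+Cyta+DAC libraries lay below all others, and Doxo+Cyta lay above NT without overlap. MLLT3 fell by 0.76 on the log2 scale against NT (SE 0.14, adjusted p 0.000475), by 1.06 against Doxo (SE 0.12, adjusted p 7.59e-06) and by 1.01 against Doxo+Cyta (SE 0.12, adjusted p 9.11e-06, all by edgeR). It was the member with the most counts, 2940 or more in every library. In Doxo over NT it gave 0.30 (SE 0.15, adjusted p 0.206), and without Doxo 4 this became 0.40 and passed (adjusted p 0.0423).

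CD34 (chr1:207886538-207911338, minus strand), the sialomucin used to isolate human stem and progenitor cells, was a low transcript here, with 19 to 108 counts per library. It stood at 2.68 and 2.74 CPM in NT, at 2.09, 1.46 and 1.89 in Doxo, at 1.18, 3.20 and 2.26 in Doxo+Cyta, and at 3.68, 2.34, 5.67 and 4.20 in Doxo+Cyta+DAC. The Doxo+Cyta+DAC libraries were above all Doxo libraries but overlapped with NT and Doxo+Cyta. NT was above all Doxo libraries, at a log2 fold change of -0.58 for Doxo over NT (SE 0.40, adjusted p 0.359). In edgeR's fit CD34 rose with decitabine by 1.14 against Doxo (SE 0.34, adjusted p 0.0101) and by 0.86 against Doxo+Cyta (SE 0.33, adjusted p 0.0376), and the value over NT was 0.56 (SE 0.37, adjusted p 0.224). The call over Doxo+Cyta was lost when any 1 of Doxo+Cyta 19, Doxo+Cyta 22, or Doxo+Cyta+DAC 30, 32 or 33 was left out. Log2 fold changes ran from 0.54, without Doxo+Cyta 19 (edgeR adjusted p 0.174), to 1.21 over all alternative fits, other scalings, filters and DESeq2 included. CD38, whose absence is combined with CD34 in sorting leukemia stem cells, had at most 1 count in every library.

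PROCR (chr20:35171937-35177362, plus strand), the endothelial protein C receptor and a surface mark of primitive HSCs, was the 1 member called in Doxo over NT. It stood at 18.5 and 19.8 CPM in NT, at 27.3, 37.6 and 41.2 in Doxo, at 36.6, 43.4 and 33.5 in Doxo+Cyta, and at 23.2, 13.2, 22.0 and 19.9 in Doxo+Cyta+DAC. All 6 libraries of chemotherapy without decitabine were above all NT and all Doxo+Cyta+DAC libraries. Doxo over NT gave 0.89 (SE 0.23, edgeR adjusted p 0.0266), a 1.85-fold rise, while Doxo+Cyta over NT gave 0.98 (SE 0.23, adjusted p 0.0511) and missed the threshold. The call in Doxo over NT was lost without NT 1 (edgeR adjusted p 0.209), NT 2 (0.157), Doxo 5 (0.0961) or Doxo 6 (0.109). The Doxo+Cyta value passed without Doxo 4 (adjusted p 0.023), without Doxo+Cyta+DAC 31 (0.026), and, at 0.85, without both Doxo 4 and Doxo+Cyta 20 (0.0133). Against chemotherapy, decitabine relapses were lower, by 0.85 on the log2 scale against Doxo (SE 0.19, adjusted p 0.00135) and by 0.95 against Doxo+Cyta (SE 0.19, adjusted p 0.000571). Over NT the value was 0.03, with a 95% interval of -0.43 to 0.50.

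EMCN (chr4:100395341-100518093, minus strand), or endomucin, a sialomucin of endothelium and primitive HSCs, fell to a few counts with decitabine. Its counts were 14 and 16 in NT, 7, 50 and 45 in Doxo, 17, 13 and 26 in Doxo+Cyta, and 4, 0, 1 and 1 in Doxo+Cyta+DAC. On the CPM scale these are 0.720 and 0.953 in NT, 0.489, 2.91 and 2.84 in Doxo, 1.05, 0.867 and 1.59 in Doxo+Cyta, and 0.245, 0, 0.0525 and 0.0792 in Doxo+Cyta+DAC. The Doxo+Cyta+DAC libraries were below all others, and Doxo 4 lay far below the other Doxo libraries. With the depth of each group taken into account, NT had 8.63 times the level of Doxo+Cyta+DAC (95% counting interval 3.54 to 25.4), Doxo 22.5 times (9.97 to 62.6) and Doxo+Cyta 12.3 times (5.30 to 34.9), on 6 counts in Doxo+Cyta+DAC. In edgeR's test the adjusted p was 0.00944 against NT, 0.000127 against Doxo and 0.00116 against Doxo+Cyta. Without NT 2 the fall against NT was 2.81 on the log2 scale and did not pass (adjusted p 0.0574). Replicate 30 held 4 of the 6 counts, and without it the fitted log2 fold change went from -3.02 to -4.04 over NT, from -4.35 to -5.37 over Doxo and from -3.51 to -4.53 over Doxo+Cyta. In Doxo over NT, EMCN gave 1.33 (SE 0.62, adjusted p 0.174), and without Doxo 4 it gave 1.75 and passed (adjusted p 0.0166). EMCN was also one of the genes the study singled out in these samples, so its direction is not independent evidence.

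FGD5 (chr3:14818962-14934565, plus strand), an exchange factor for the small GTPase CDC42 whose promoter marks HSCs in mice, had the largest fall after EMCN. It stood at 6.48 and 9.29 CPM in NT, at 6.07, 5.59 and 4.99 in Doxo, at 3.59, 5.80 and 3.73 in Doxo+Cyta, and at 0.919, 0.963, 0.787 and 1.66 in Doxo+Cyta+DAC. NT was above every treated library, and Doxo+Cyta+DAC was below every other library. FGD5 fell by 2.89 on the log2 scale against NT (SE 0.29, adjusted p 6.34e-06), by 2.38 against Doxo (SE 0.27, adjusted p 7.52e-06) and by 2.04 against Doxo+Cyta (SE 0.28, adjusted p 2.73e-05, all by edgeR). NT therefore had 7.40 times the level of Doxo+Cyta+DAC, and Doxo+Cyta 4.11 times. Chemotherapy without decitabine gave -0.50 for Doxo over NT (SE 0.28, adjusted p 0.248) and -0.85 for Doxo+Cyta over NT (SE 0.28, adjusted p 0.12). Without Doxo 4 and Doxo+Cyta 20 the Doxo+Cyta value became -1.12 and passed (adjusted p 0.0166).

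Doxo and Doxo+Cyta, which differ by cytarabine, did not differ past the threshold in any member. The 95% intervals of Doxo+Cyta over Doxo were -0.33 to 0.23 for MLLT3, -0.62 to 0.13 for MECOM, -0.33 to 0.52 for PROCR and -0.45 to 0.44 for ERG. They were wider for the low transcripts, from -1.96 to 0.29 for EMCN and from -0.51 to 1.08 for CD34. Leaving out Doxo 4 and Doxo+Cyta 20 raised the members called in Doxo over NT from 1 to 3 (PROCR, MLLT3 and EMCN, all higher), where 2564 of 14078 tested genes were then called higher and 2703 lower. It raised those in Doxo+Cyta over NT from 0 to 2 (PROCR higher, FGD5 lower), where 855 genes were called higher and 1182 lower.

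The members were set beside the tested genes within 2 Mb of each. In Doxo+Cyta+DAC over Doxo+Cyta, FGD5 at -2.04 was below all 30 of its neighbours, whose median was 0.45, and EMCN at -3.51 was below all 18 of its neighbours, whose median was 0.15. MECOM at 1.31 was above 14 of 15 neighbours, with a median of 0.03, and MLLT3 at -1.01 was below 8 of 9, with a median of -0.49. CD34 at 0.86 was above 20 of 23 neighbours, of which 12 were called lower and 4 higher. MEIS1 at -0.96 was below 17 of 18 neighbours, with a median of 0.07. ERG, GFI1 and PROCR stood less apart, ERG above 12 of 17 neighbours, GFI1 below 19 of 25 and PROCR, at -0.95, below 43 of 55. By position alone, and outside the rule for naming genes, the nearest tested gene to FGD5 was FGD5-AS1, 8214 bases away, which rose by 0.71 (SE 0.09, edgeR adjusted p 2.15e-05). The nearest to EMCN was LINC01216, 142186 bases away, which fell by 2.46 (SE 0.33, adjusted p 2.6e-05), and the nearest to MECOM was ACTRT3, 103148 bases away, which rose by 0.96 (SE 0.25, adjusted p 0.0042).

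Genes whose profile over the 12 libraries was most like that of a member were found by the smallest root-mean-square difference of centred log2 CPM. The closest match was MLLT3 with CCNDBP1 (0.08) and GPI (0.091), where MLLT3 itself varied by 0.487 about its mean. MECOM was most like FZD6 (0.119) and WDR36 (0.12), with its own variation at 0.59, and PROCR was most like LGALS1 (0.131) and ITM2C (0.146), against 0.517. MEIS1 was most like TMEM108 (0.142) and MTMR8 (0.151), GFI1 like SIAE (0.187) and CPPED1 (0.204), and ERG like CABP7 (0.213) and HIST1H2AE (0.226). The low transcripts had looser matches, CD34 with B4GALNT1 (0.25) and ALDH1B1 (0.26), FGD5 with NCALD (0.261) and LGR6 (0.333), and EMCN with ARHGAP12 (0.457) and GSTM5 (0.488). In no case was the nearest profile that of another member.

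The other genes of the pathways around the members were read from fixed lists, with members left out, in Doxo+Cyta+DAC over Doxo+Cyta. Over all tested genes, 29.8% were called higher and 30.5% lower in this comparison. Of the 6 other heptad factors, which act together with ERG at stem-cell enhancers, 5 were called lower and 1 higher. FLI1, the ETS relative of ERG, fell from 354 to 154 CPM (log2 fold change -1.21, SE 0.14, edgeR adjusted p 7.69e-06), and GATA2, a zinc-finger factor of HSCs, fell from 966 to 508 CPM (-0.93, SE 0.10, adjusted p 2.41e-06). RUNX1, a master factor of definitive hematopoiesis, rose from 303 to 466 CPM (0.62, SE 0.09, adjusted p 4.63e-05), so ERG and RUNX1 were the heptad members that rose. Of 11 tested HOX and TALE genes, 6 were called lower and 2 higher. Those included PBX2 and PBX4, known cofactors of HOX and MEIS proteins, at -1.07 (adjusted p 3.17e-06) and -1.98 (adjusted p 3.44e-06), and TGIF1, a TALE repressor, at -1.36 (adjusted p 0.000367). The list also holds HOXB4, which the study singled out in these samples, so that count is not independent evidence either.

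Among the partners of MLLT3 in elongation and H3K79 methylation, 5 of 15 tested genes were called lower and 2 higher, and without Doxo 4 and Doxo+Cyta 20 these were 7 and 4. The shares over all genes were 29.8% higher and 30.5% lower, or 4693 and 4716 of 14078 genes without those 2 libraries. EAF2, a cofactor of the ELL elongation factors, gave -0.77 (edgeR adjusted p 0.00014), DOT1L, the H3K79 methyltransferase, -0.47 (adjusted p 0.000524), and KMT2A, the MLL methyltransferase, -1.16 (adjusted p 0.000757). Of 10 tested relatives and corepressors of GFI1 and MECOM, 4 were called higher and 3 lower, or 6 and 4 without those 2 libraries. The MECOM corepressor CTBP2 gave 0.86 (adjusted p 8.95e-06) and the deacetylase HDAC1 0.71 (adjusted p 2.08e-05), while PHF21A, a subunit of the KDM1A complex, gave -1.59 (adjusted p 2.09e-06). The MECOM relative PRDM16 had at most 3 counts in every library. Of the 12 PAR bZIP and clock genes related to HLF, 4 were called higher and 4 lower, close to the shares over all genes. The HLF relative DBP gave -1.47 (edgeR adjusted p 3.58e-06), NFIL3, which binds the same sites, -1.89 (adjusted p 4.73e-06), and the clock repressor PER1 -1.15 (adjusted p 2.07e-06).

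The next lists are read beside the same 29.8% of all genes called higher and 30.5% lower. Among the other stem-cell identity genes, 1 of 9 tested was called, HOPX, which rose from 0.196 to 0.708 CPM (log2 fold change 1.85, SE 0.70, edgeR adjusted p 0.0347) on at most 18 counts per library. Without Doxo 4 and Doxo+Cyta 20, 2 identity genes were called higher and 2 lower, beside 4693 and 4716 of 14078 genes. Among the stem-cell surface markers, 2 of 9 tested were called higher and 3 lower. PODXL, a sialomucin relative of CD34, rose from 2.99 to 8.14 CPM (1.45, SE 0.26, adjusted p 0.000325), and CD59, a complement inhibitor, gave -0.65 (adjusted p 0.00169). Of the 9 tested leukemia stem-cell surface markers, 1 was called higher and 2 lower. The 1 called higher was HAVCR2, or TIM-3, at 1.18 (edgeR adjusted p 0.0028), from 3.09 to 7.03 CPM. Its highest Doxo+Cyta+DAC library was at 11.6 CPM, against a group median of 5.80 CPM. Group means went down from 207 to 162 CPM for CD47 and from 242 to 195 CPM for CD82. The LSC17 genes, the list behind a published stemness score of AML, leaned the other way from most members: 9 of the 16 besides CD34 were called higher and 4 lower, with a median log2 fold change of 0.42 beside 0 over all tested genes. The score itself was not computed, and the counts and sums given here weigh all these genes alike, so they do not give its direction. Their summed level was 1196 to 1210 CPM in NT, 874 to 1148 in Doxo, 1003 to 1151 in Doxo+Cyta and 1750 to 2126 in Doxo+Cyta+DAC. Most of that gap was 1 gene, LAPTM4B, and the other 15 summed to 767 to 783 CPM in NT, 633 to 740 in Doxo, 706 to 747 in Doxo+Cyta and 788 to 913 in Doxo+Cyta+DAC. LAPTM4B, a lysosomal membrane protein, rose from 343 to 1003 CPM (1.55, SE 0.18, adjusted p 5.85e-06), and ADGRG1, an adhesion receptor also known as GPR56, gave 0.93 (adjusted p 5.08e-05), while SMIM24 gave -1.52 (adjusted p 1.85e-06).

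Markers of other cell types moved in the same comparison, in which 29.8% of all tested genes were called higher and 30.5% lower. Of the 12 tested endothelial markers, which bear on PROCR, EMCN and FGD5, 4 were called higher and 4 lower, close to those shares. Among those called lower, TIE1 gave -0.82 (edgeR adjusted p 3.51e-05), EGFL7 -0.97 (adjusted p 0.000119) and VWF -3.06 (adjusted p 0.000171). VWF was a low transcript, with 15 to 50 counts per library in Doxo+Cyta and 3 to 4 in Doxo+Cyta+DAC. Group means of other endothelial markers went up, from 16.3 to 41.6 CPM for PLVAP and from 44.3 to 62.8 CPM for KDR. The endothelial list summed to between 490 and 658 CPM in Doxo+Cyta+DAC and to between 681 and 824 CPM in the other groups, and SELE, CLDN5 and SOX17 had at most 3 counts in every library. Of 5 tested megakaryocyte markers, 4 were called lower and none higher, with the platelet glycoprotein GP9 falling from 172 to 31.6 CPM (-2.45, SE 0.20, adjusted p 4.2e-07) and the factor GATA1 at -1.01 (adjusted p 1.72e-06). That list summed to between 1356 and 1631 CPM in Doxo+Cyta+DAC and to between 2073 and 2713 CPM in the other groups. Of 9 erythroid markers, 6 were called lower, and their sum was 5259 to 7898 CPM in Doxo+Cyta+DAC and 6854 to 9631 CPM in the other groups. Of the 6 tested granulocyte and monocyte markers, 3 were called lower and 1 higher, and of the 3 tested lymphoid markers 2 were called lower. The part of these lineage shifts in the members' values was not tested.

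In Doxo over NT, 11 of the 132 tested list genes were called higher and 3 lower, which is 10.6% in all and close to the share over all genes (6.06% higher, 4.63% lower). The elongation partners of MLLT3 had 3 called higher and 0 lower of 15 tested, ELL2 at 0.85 (SE 0.18, edgeR adjusted p 0.0103), ELL at 0.61 (SE 0.13, adjusted p 0.0105) and EAF1 at 0.53 (SE 0.15, adjusted p 0.0396), all cofactors or subunits of elongation complexes. Of the clock genes, PER1 gave 0.74 (SE 0.14, adjusted p 0.00757) and PER2 0.75 (SE 0.18, adjusted p 0.0189). GATA2 was the 1 heptad factor called, at -0.39 (SE 0.11, edgeR adjusted p 0.0428). THBD, or thrombomodulin, which acts with PROCR in protein C activation, was the 1 endothelial marker, at 2.29 (SE 0.63, adjusted p 0.0337). It was a low transcript, at means of 0.218 CPM in NT and 1.10 CPM in Doxo. That rests on 3 to 5 counts per NT library and 9 to 24 per Doxo library. The corepressor HDAC1 was called higher and the LSC17 gene DNMT3B, a DNA methyltransferase, lower. Among lineage markers, SLC4A1, CEBPA, LYZ and CD2 were called higher and HBZ, an embryonic globin, lower.

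These counts rested on the libraries that stood apart. Without Doxo 4 and Doxo+Cyta 20, 25 list genes were called higher and 18 lower in Doxo over NT, or 32.6%. Over all 14078 genes tested without them, 2564 were called higher and 2703 lower, which is a larger share. The list genes called included 10 higher and 1 lower among the elongation partners, 5 higher among the PAR bZIP and clock genes and 5 lower in LSC17. Stem-cell identity genes and the surface markers of stem and leukemia stem cells had 0 calls by edgeR with all libraries, and without those 2 they had 1 higher, 3 lower and 1 lower in that order. In Doxo+Cyta over NT, 1 list gene of 132 was called, PER1, which was higher (0.758%, beside 0.911% of all genes higher and 0.551% lower). Without the 2 libraries, 8 list genes were called higher and 6 lower (10.6%), beside 855 and 1182 of 14078 genes.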

How the data were processed

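RNA of 12 HEL cultures was sequenced as paired-end TruSeq libraries. Per the labels and the study's methods, the authors checked reads with FastQC, filtered them with fastx-toolkit, aligned them to GRCh38 with Bowtie2 2.2.8, and counted fragments per gene with featureCounts 1.6.0, without strand and without chimeric pairs. The deposited values are these raw counts, not normalized. Bowtie2 does not split reads over exon junctions, which lowers counts of genes with many short exons. Of 26485 genes, 4 lacked a count and were dropped.

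From the counts, edgeR 4.0.16 (R 4.3.3; filterByExpr, TMM, quasi-likelihood test, 2-sided, all 12 libraries in 1 fit) gave log2 fold changes for 6 comparisons, with p-values adjusted by Benjamini-Hochberg over the 14164 genes tested. SE is the log2 fold change over the square root of F, and intervals use the fit's degrees of freedom. CPM uses TMM-scaled library sizes, RPKM divides it by gene length, and log2 CPM for likeness adds a prior count of 2. Total counts were 12763582 to 19106235, and intervals on counts cover counting error only. DESeq2 1.42.0, other scalings and filters, fits of only the groups compared and fits without each library were the alternatives, and leaving out Doxo 4 and Doxo+Cyta 20 together was added after seeing the data. The fit was tested on simulated data.

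All 10 members are named; 2 profile matches are named per called member, and at most 3 genes per list by smallest adjusted p, with some list genes not reported here. Members and lists were chosen with earlier results of these data known. Groups come from the labels, which name no batch and share no replicate numbers between groups. Nothing states whether cultures of a group were independent beyond being biological replicates, so p-values measure the spread between these cultures. The series text mentions 3 untreated samples, and 2 were analysed here.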

Additional observations from a re-analysis of the deposited data

Results flagged for a closer look

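ERG in Doxo+Cyta+DAC stood out because its highest library, replicate 30, at 31.6 CPM, was far from the other 3 (17.5, 19.5 and 19.2 CPM) relative to the range of the group. All 10 members were examined in this group of 4 libraries, and chance marks about 1 group in 20, so a single such value among 10 is not unusual. Without replicate 30, ERG was still called higher over NT, Doxo and Doxo+Cyta. The cause was not tested.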

How the results depend on the processing

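The 24 calls of members kept their direction under every alternative run (other scaling or filters, DESeq2, only the groups compared, each library left out, both libraries that stood apart left out), and 443 of their alternative values stayed past the threshold. The other 12 did not pass, and belonged to PROCR in Doxo over NT, CD34 in Doxo+Cyta+DAC over Doxo+Cyta (also with upper-quartile scaling, 0.76, and with only the groups compared, 0.86) and EMCN in Doxo+Cyta+DAC over NT. The number of members called in Doxo+Cyta over NT was 1 with upper-quartile scaling, no filter, a mean of at least 10 counts or DESeq2, 2 without both libraries, and 0 to 1 with each library left out. In Doxo over NT it was 2 with only the groups compared, 3 without both libraries, and 0 to 3 with each library left out. The other comparisons stayed within 1.5 times their counts.

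Values that changed sign, 38 in all, belonged to 8 results that were not called in the fit as reported. For MECOM in Doxo over NT they were -0.0115 with RLE scaling, -0.0437 with upper-quartile scaling, -0.0508 without a filter, -0.0104 with DESeq2 and -0.0745 without both libraries (left out singly, -0.2039 to 0.2304). For ERG in Doxo+Cyta over Doxo they were 0.0002 with RLE scaling, 0.0476 with upper-quartile scaling, 0.0071 without a filter, 0.0027 with a mean of at least 10 counts and 0.15 without both libraries (singly, -0.0813 to 0.0966). PROCR in Doxo+Cyta+DAC over NT gave -0.0491 with upper-quartile scaling, -0.0052 without a filter and -0.0021 with only its groups (singly, -0.0569 to 0.1825). MLLT3 in Doxo+Cyta over Doxo gave 0.0083 with upper-quartile scaling (singly, -0.1669 to 0.0452). Without both libraries, GFI1 in Doxo over NT gave 0.0242 (singly, -0.3169 to 0.0242) and PROCR in Doxo+Cyta over Doxo -0.16 (singly, -0.0465 to 0.227). With single libraries left out, CD34 in Doxo+Cyta over Doxo ran from -0.0652 to 0.6028 and MEIS1 in Doxo+Cyta over NT from -0.0522 to 0.1968. The cause was not tested.

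Upper-quartile scaling moved the median of all genes by at most 0.09. In Doxo+Cyta over Doxo it changed the calls over all genes from 152 higher and 329 lower to 205 and 249, in Doxo over NT from 859 and 656 to 695 and 739, and in Doxo+Cyta+DAC over NT from 3530 and 3363 to 2960 and 3891, and it left 7 LSC17 genes higher in place of 9. With only the groups compared, EMCN failed the filter in Doxo+Cyta+DAC over Doxo and has no value. No paired analysis was possible because the groups share no replicate numbers. HLF, with 10 counts, and EMCN, with 6 in Doxo+Cyta+DAC, are limited by depth.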
